A study of Mus musculus with 32 samples.

Results

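The genes described here encode chromatin remodelers and histone-modifying enzymes, read in the dendrites and the soma of the same single mouse neurons. They are the members of the Smarc, Chd, Kdm, Kmt, Setd, Hdac, Arid, Brd and Ezh families in the 3′UTR count table, chosen by symbol, with pseudogenes left out. There were 87 such genes among the 44081 genes of the table, namely 13 SWI/SNF and ISWI remodelers, 10 CHD remodelers, 10 ARID DNA-binding proteins, 18 histone methyltransferases, 18 histone demethylases, 11 histone deacetylases and 7 bromodomain proteins. The role groups were set by symbol alone, so a member need not belong to the complexes, or act on the histones, that its group names. Of the 87, 74 had a read in at least 16 of the 32 libraries and could be tested.

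Hippocampal neurons of C57BL/6 mouse embryos, taken at embryonic day 18, were cultured for 15 days under basal conditions, from multiple cultures on multiple days. From each of 16 neurons the severed dendrites and the cell body were drawn up and kept apart, so that the 16 dendrite and 16 soma libraries were paired by neuron. Polyadenylated RNA was amplified by the aRNA method, which copies RNA through repeated in vitro transcription, in 3 rounds for neurons 1 to 4 and in 2 rounds for the other 12 neurons. Both compartments of a neuron had the same number of rounds, and the labels give no spike-in for neurons 1 and 2. The comparison asks which RNAs reach the dendrites and which remain in the soma. A dendrite library is what a pipette drew from the cut dendrites, so its volume is not known, and less RNA of a gene per dendrite cannot be told apart from less dendrite collected.

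DNA in the nucleus is wound around histones. Remodelers of the SWI/SNF, ISWI, CHD and INO80 families use ATP to move or evict these histone cores, while methyltransferases, demethylases and deacetylases write or erase marks on the histone tails, and bromodomain proteins bind acetylated tails. Most of these proteins work in the nucleus, although class IIa deacetylases move between nucleus and cytoplasm in neurons and Hdac6 acts mainly on tubulin in the cytoplasm. Mutations in many of the genes, such as Arid1b, Chd8 and Kmt2d, cause human disorders of brain development.

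Dendrites held 646521 to 6954420 reads on 3′UTRs and somas 925525 to 21169974. The neuronal RNAs Map2, Gad1 and Gad2 had reads in all 32 libraries, Slc17a7, a transporter of excitatory neurons, had reads in 13 dendrites and 13 somas, and Map2, which encodes a dendritic microtubule protein, was higher in dendrites (log2 fold change 2.66, SE 0.49, adjusted p = 0.00202). Mitochondrial genes took 15.3% ± 9.80 of dendrite reads and 2.02% ± 2.12 of soma reads (SD, n = 16 each). Several libraries stood apart. The dendrites of neurons 15 and 16 had 1570 and 2485 genes at 10 reads or more and 0 reads of Malat1, a nuclear RNA, the soma of neuron 12 had 0 Malat1 reads and 2 Meg3 reads, and neuron 5 was the only neuron with more genes at 10 reads or more in its dendrites (9871) than in its soma (6889).

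Reads of nearly every one of these genes were found in some dendrite library, but each dendrite library held reads of only some of them. Counted at 1 read or more, a dendrite library held 15 to 73 of the genes. Whether a gene without reads was absent or missed was not tested. At 10 reads or more, 80 of the 87 genes were found in at least 1 dendrite. A single dendrite library had between 4 and 54 of the genes at that level (median 35), and a single soma between 42 and 82 (median 65). The mean was 33.4 ± 13.3 in dendrites and 62.8 ± 12.1 in somas (SD, n = 16), and the soma had more in 15 of the 16 neurons, by 29.4 ± 16.97 genes (SD, n = 16). The exception was neuron 5, with 54 in its dendrites and 45 in its soma. When both libraries of each neuron were thinned to the same number of reads, the difference was 24.2 ± 16.6 genes (SD, n = 16), with more in the soma in 14 neurons. Without neurons 5, 12, 15 and 16, a choice made after seeing the data, it was 29.9 ± 12.7 genes (SD, n = 12) with all reads, and more in all 12 somas.

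**Figure D1:**
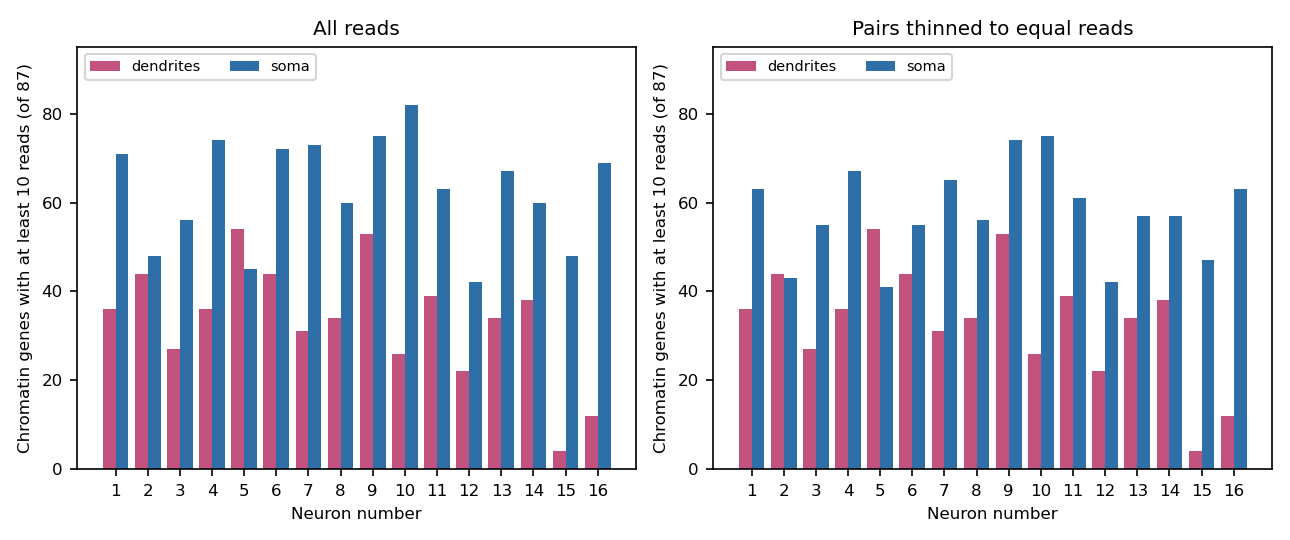
Number of the 87 chromatin genes with at least 10 reads (vertical axis) in the dendrites and the soma of each of 16 neurons (horizontal axis), with all reads on the left and with each pair thinned to the same number of reads on the right. Each bar is 1 library. Soma bars are taller in 15 neurons with all reads and in 14 after thinning, and the shortest bar, at 4 genes, is the dendrites of neuron 15.

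The smaller number of chromatin genes in dendrites went along with a smaller number of genes in all, 5827 ± 2064 in dendrites against 9206 ± 1644 in somas (SD, n = 16). Chromatin genes made up 0.557% ± 0.117 of the genes found in dendrites and 0.682% ± 0.0436 of those found in somas (SD, n = 16), a larger share in the soma in 14 of 16 neurons. As a share of all reads, they took 0.285% ± 0.0955 in dendrites and 0.407% ± 0.0714 in somas, higher in the soma in 12 of 16 neurons. In the 12 neurons amplified in 2 rounds the soma had 30.4 ± 18.0 more of the genes at 10 reads or more, and in the 4 neurons amplified in 3 rounds 26.5 ± 15.46 more (SD).

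Counted at 1 read or more, the 74 tested chromatin genes had reads in a median of 11 dendrites and 15 somas, as did all genes tested. The split by gene was not counted over all genes. Of the 87 chromatin genes, 77 appeared in fewer dendrites than somas, 7 in as many and 3 in more. The 3 were Arid3b, with reads in 13 dendrites and 9 somas, Chd7, with 8 and 6, and Arid3c, with 1 and 0, named here after their values were seen. There were 32 genes with reads in all 16 somas and 4 with reads in all 16 dendrites. Among the 4 were Chd3, a helicase of the NuRD complex, Setd7, a lysine methyltransferase, and Hdac5, a class IIa deacetylase. There were 11 genes with reads in at least 15 dendrites, and they included Brd2, Brd7, Chd4, Hdac9, Kdm2a, Kmt2e and Smarca2. That was 14.9% of the chromatin genes tested, beside 17.1% of all genes tested, so the share of chromatin genes was near that of other genes. Among the 12 dendrites other than those of neurons 5, 12, 15 and 16, 23 chromatin genes had reads in at least 11, as did 33.7% of all genes tested.

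**Figure D2:**
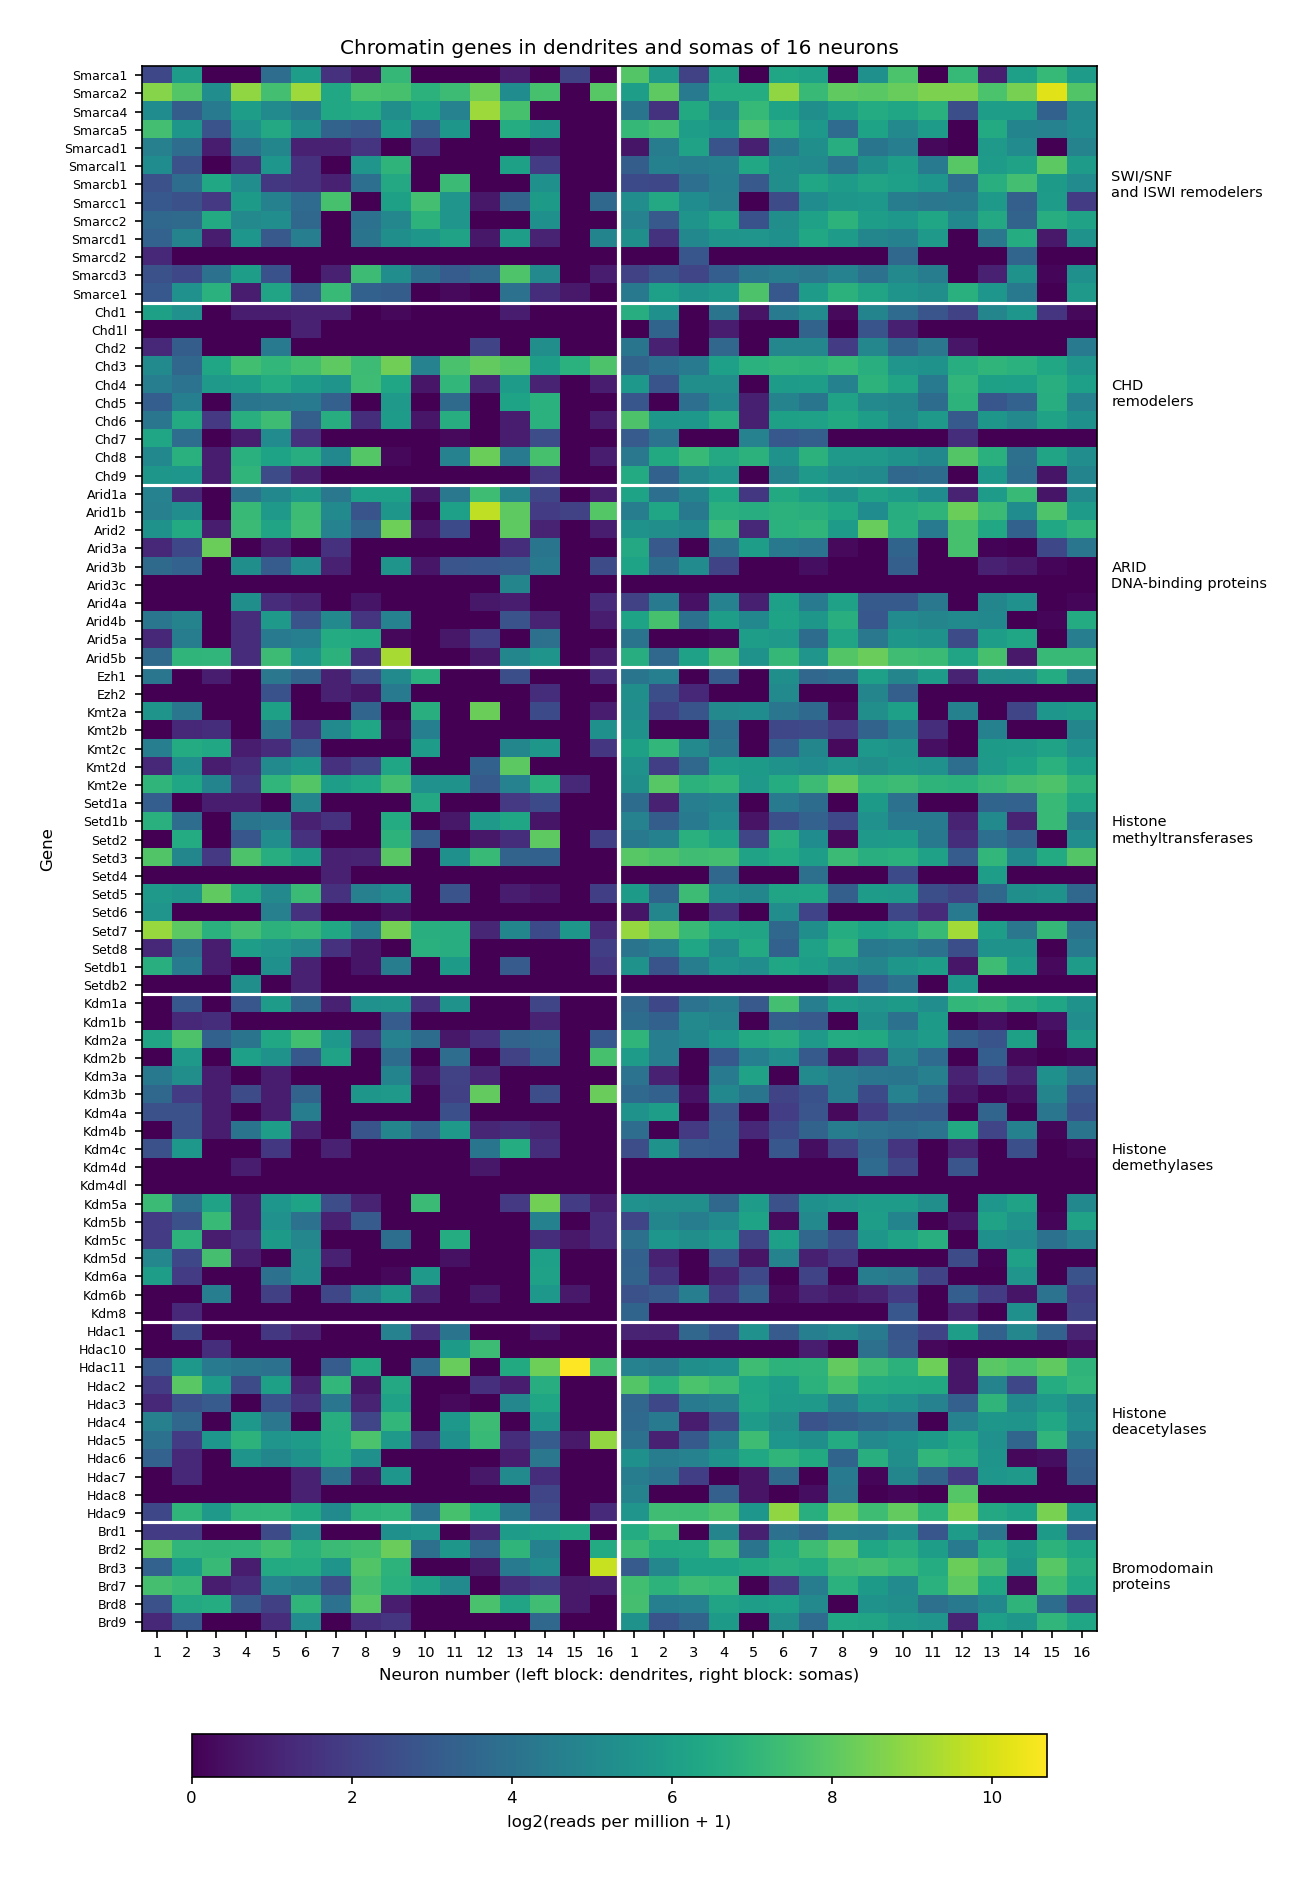
Level of 86 of the 87 chromatin genes (rows, grouped by role) in the 16 dendrite libraries (left block) and the 16 soma libraries (right block), in color as log2 of the level in RPM (reads of the gene in 1000000 reads of the library) plus 1, with the darkest color at 0 reads. The soma block is filled for most rows, while the dendrite block is patchy, with Chd3 and Smarca2 bright in most dendrites and the dendrites of neurons 15 and 16 mostly dark.

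Levels below are RPM scaled by the composition of the libraries and are compared within a gene only. The reads carry no molecular tags, so many reads may stem from 1 molecule, and a high value in 1 dendrite is not many molecules. Single dendrites could differ widely. Hdac11, the only class IV deacetylase, had a dendrite median of 18.3 but 1647 in the dendrites of neuron 15, the library with the fewest genes. Brd3 had a median of 39.6 and reached 876 in the dendrites of neuron 16, and Arid1b had a median of 43.4 and reached 799 in those of neuron 12. Each of these values was above the highest soma value of its gene, which was 318, 311 and 307, respectively.

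In the paired test of dendrites against somas, 5 of the 74 tested genes were higher in somas and 0 were higher in dendrites (edgeR, adjusted p at most 0.05). The 5 were Brd9, Kdm1b, Chd1, Hdac1 and Arid4a, and they came from 5 of the 7 role groups. They are 6.76% of the chromatin genes, beside 5.71% of all 10880 genes tested that were higher in somas and 0.827% that were higher in dendrites, so the share called was near the background. At an unadjusted p under 0.05 the soma side held 30 of the 74 (40.5%), beside 26.7% of all genes, and the dendrite side held 1, Arid3b, beside 3.55% of all genes. DESeq2, with the same genes and the same pairing, called 50 of the 74 higher in somas beside 46.2% of all genes, and 1, Arid3b, higher in dendrites beside 4.26%.

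The direction was shared more widely than the calls. The log2 fold change of dendrites over somas was below 0 for 70 of the 74 genes (94.6%), and for 78.8% of all genes. The median was -1.98 for the chromatin genes and -1.49 for all genes tested, a difference of -0.49 on the log2 scale, and 49 of the 74 were below the median gene. When the dendrite libraries were rescaled so that the median gene had a change near 0, the chromatin genes had a median of -0.49, with 0 higher in somas and 1, Chd3, higher in dendrites, while the calls over all genes went from 621 higher in somas and 90 in dendrites to 89 and 590. Higher and lower below refer to levels scaled by library composition unless stated otherwise.

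**Figure D3:**
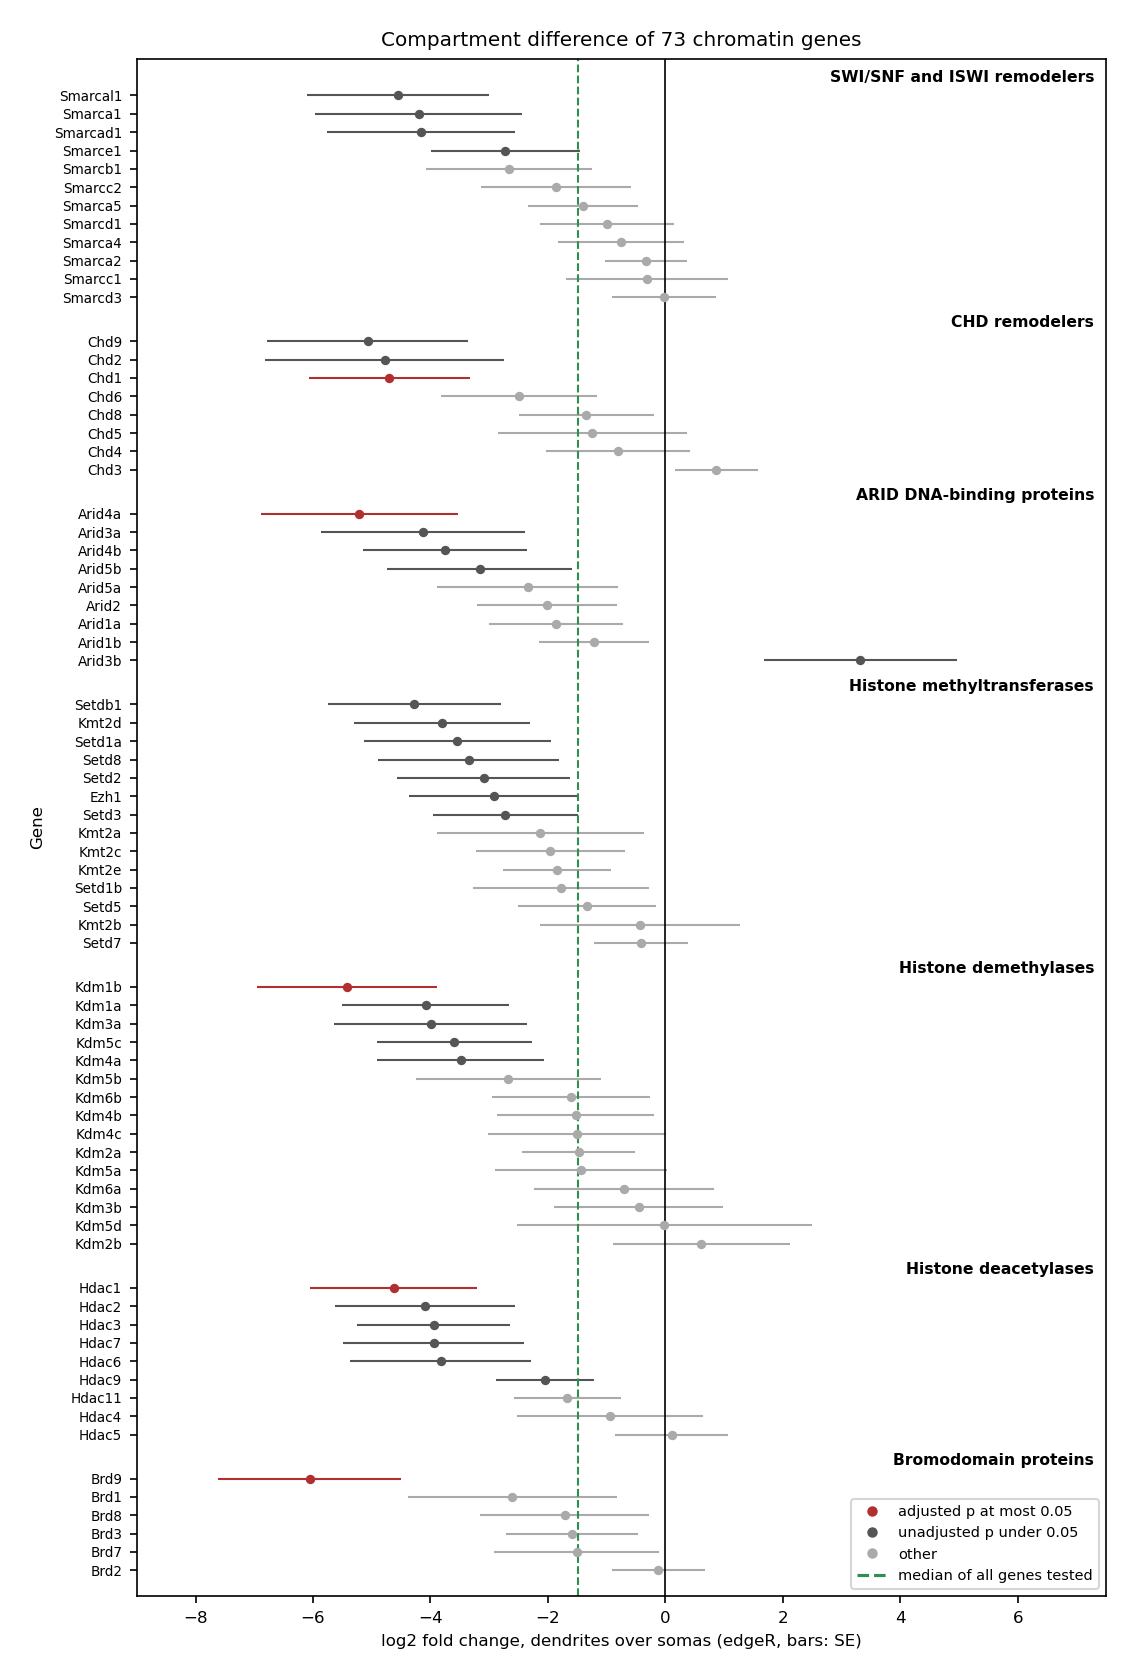
Log2 fold change of dendrites over somas (horizontal axis, edgeR, bars: SE, 16 neurons) for 73 of the 74 chromatin genes tested, by role. Red points are the 5 genes with an adjusted p of at most 0.05, dark gray points those with an unadjusted p under 0.05, and the dashed line is the median of all genes tested at -1.49; only Arid3b, Chd3, Kdm2b and Hdac5 lie right of 0.

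Brd9, a bromodomain subunit of a SWI/SNF complex, had the lowest fold change of the group. Its dendrites ranged from 0 to 35.1 RPM with a median of 0, and its somas from 0 to 129 with a median of 47.6. Reads were present in 7 dendrites and 15 somas, and the soma was higher in 14 of 16 neurons. The exceptions were neuron 2, with 6.59 in dendrites and 5.92 in the soma, and neuron 5, whose soma had 0. The log2 fold change was -6.06 (SE 1.56, adjusted p = 0.0189), and -4.57 relative to the median gene. The ranges of dendrites and somas overlapped, as they did for every gene of the group. The gene lies on chromosome 13 from 73937811 to 73960895, plus strand (GRCm38), and the count table of 3′ ends holds 1 end for it.

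Kdm1b, a flavin-dependent demethylase of histone H3 also called LSD2, ranged from 0 to 7.64 in dendrites and from 0 to 55.4 in somas, with medians of 0 and 8.66. Only 4 dendrites had reads and only 1 of them, that of neuron 9, had 10 or more, against 12 somas with reads. The soma was higher in 12 of the 13 neurons with reads (log2 fold change -5.42, SE 1.53, adjusted p = 0.0292). Kdm1b lies on chromosome 13 from 47043499 to 47085279, plus strand.

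Chd1, a remodeler that acts at transcribed genes, ranged from 0 to 65.6 in dendrites with a median of 0.0796 and from 0 to 101 in somas with a median of 14.2. The high dendrite values were those of neurons 1 and 2, at 65.6 and 40.8, beside 101 and 40.5 in their somas. Every other dendrite held at most 1 read. The log2 fold change was -4.70 (SE 1.38, adjusted p = 0.0339), and the soma was higher in 13 of the 15 neurons with reads. The neurons of 2 rounds alone gave -5.84 and those of 3 rounds, which include neurons 1 and 2, gave -1.22. Chd1 lies on chromosome 17 from 15704967 to 15772610, plus strand.

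Hdac1, the class I deacetylase of the NuRD, SIN3 and CoREST complexes, had reads in all 16 somas and in 7 dendrites. Its dendrites ranged from 0 to 25.3 with a median of 0, and its somas from 0.987 to 61.7 with a median of 9.13. The dendrites of neurons 9 and 11 held 25.3 and 16.3, above the 19.6 and 3.62 of their somas, and the soma was higher in 13 of 16 neurons. The log2 fold change was -4.63 (SE 1.42, adjusted p = 0.0410). Hdac1 lies on chromosome 4 from 129516104 to 129542713, minus strand.

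Arid4a, which binds the retinoblastoma protein and recruits the SIN3 deacetylase complex, ranged from 0 to 38.7 in dendrites and from 0 to 69.2 in somas, with medians of 0 and 12.8. Among dendrites only that of neuron 4 had 10 reads or more. The soma was higher in 11 of 15 neurons with reads (log2 fold change -5.21, SE 1.68, adjusted p = 0.0488). Arid4a lies on chromosome 12 from 71015990 to 71098592, plus strand.

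**Figure D4:**
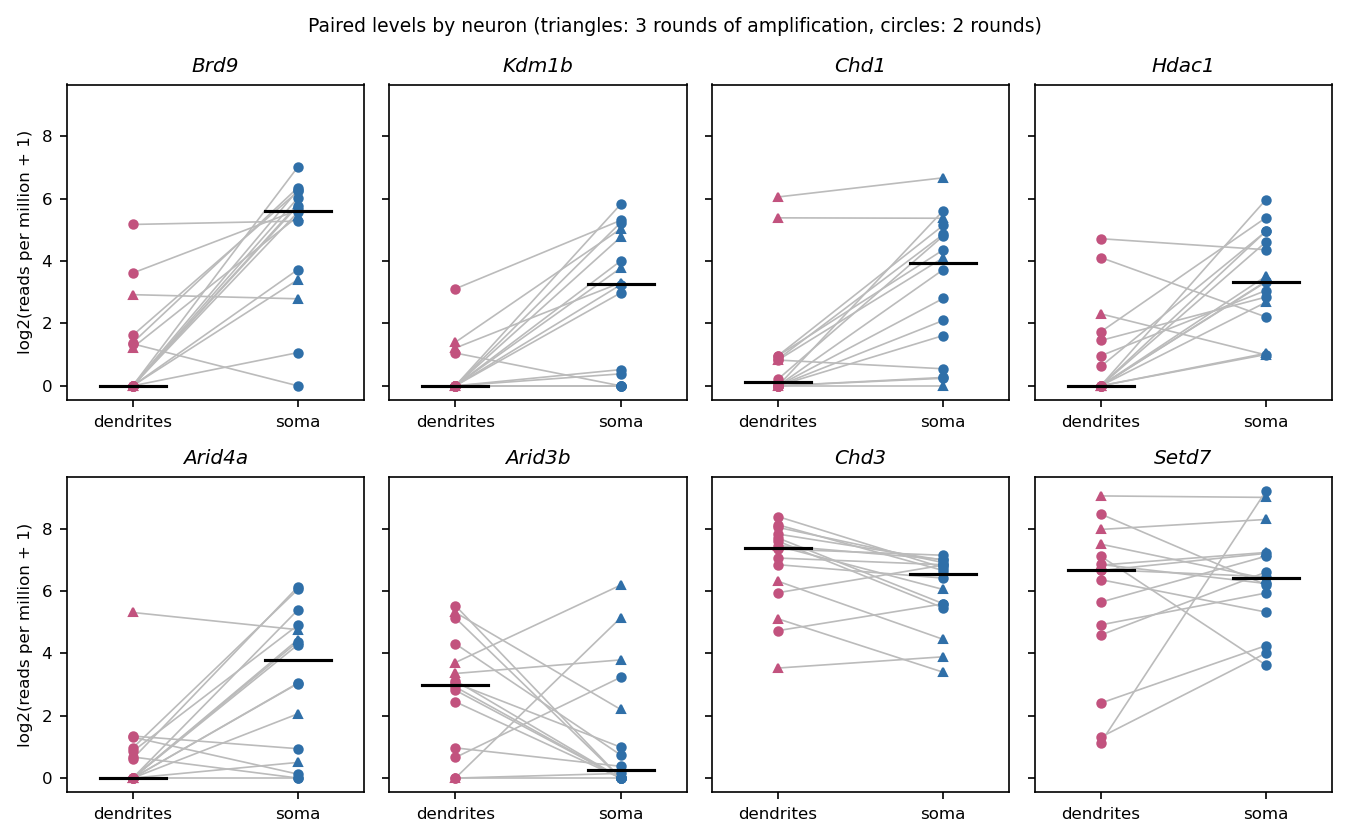
Levels of 8 chromatin genes in dendrites and soma of each neuron (vertical axis, log2 of RPM plus 1), joined by a line, with the median of the 16 libraries as a black bar. Triangles are neurons amplified in 3 rounds and circles those in 2 rounds. For Brd9, Kdm1b, Chd1, Hdac1 and Arid4a the dendrite medians lie at or near 0 and most lines end higher in the soma, while Chd3 lies lower in the soma in 13 neurons and the Setd7 medians are 101 and 85.1.

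These 5 calls rested on single neurons to different degrees. With each neuron left out in turn, Brd9 remained past the threshold in 15 of 16 fits and was lost without neuron 16 (adjusted p = 0.0526). Kdm1b was lost without neuron 1, 4, 10 or 16, Chd1 remained only without neuron 1, 2, 5, 6 or 8, Hdac1 only without neuron 2, 5, 6, 9 or 11, and Arid4a only without neuron 4, 5 or 12. Over these fits the count of chromatin genes higher in somas ran from 0 without neuron 16 to 11 without neuron 5. The count over all genes moved as well, from 621 in the main fit to 130 without neuron 16 and 990 without neuron 5. Without neurons 5, 12, 15 and 16 together, 1 gene was higher in somas (Arid4a, adjusted p = 0.0213) and 0 in dendrites, and all genes gave 89 and 52. In each of these fits the log2 fold changes of the 5 genes stayed below 0.

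The next genes by p on the soma side did not pass the test. Hdac3, the deacetylase of the NCoR complex, ranged from 0 to 80.0 in dendrites (median 1.62) and from 3.95 to 127 in somas (median 31.7), with reads in 11 dendrites and all 16 somas (log2 fold change -3.95, SE 1.30, adjusted p = 0.0537). Kdm1a, or LSD1, the demethylase of CoREST, ranged from 0 to 58.0 in dendrites (median 2.75) and from 3.95 to 179 in somas (median 45.4), and gave -4.08 (SE 1.42, adjusted p = 0.0651). Setdb1, which methylates histone H3 at silent repeats, had medians of 0.883 in dendrites and 44.5 in somas and gave -4.28 (SE 1.48, adjusted p = 0.0632). In all 3 the soma was higher in 13 of 16 neurons. Smarcal1, a helicase that reanneals DNA at stalled replication forks, was found in all 16 somas at 7.92 to 254 and in 9 dendrites at up to 123 (-4.55, SE 1.55, adjusted p = 0.0603). Chd9 ranged from 0 to 125 in dendrites (median 0) and from 0 to 91.9 in somas (median 26.9), and gave -5.07 (SE 1.72, adjusted p = 0.0596). Its high dendrite values, 49.5, 47.4 and 125, were those of neurons 1, 2 and 4, all of 3 rounds, and it gave -7.17 in the neurons of 2 rounds, 0.035 in those of 3 rounds and -0.86 with exon counts.

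By role, histone deacetylases had the lowest median log2 fold change, -3.83 over 9 tested genes. Of these, 1 passed and 6 were under an unadjusted p of 0.05 on the soma side, beside 26.7% of all genes. The class I enzymes, which are mostly nuclear, lay close together. Hdac1, Hdac2 and Hdac3 had log2 fold changes of -4.63, -4.09 and -3.95. Hdac2 was found in 12 dendrites and 16 somas, at medians of 2.23 and 96.9. Hdac8, the remaining class I gene, had reads in too few libraries to be tested, 2 dendrites and 7 somas. The class IIa genes covered a wider range. Hdac7 was at -3.95 (SE 1.54, adjusted p = 0.0895), Hdac9 at -2.05 (SE 0.84, adjusted p = 0.102), Hdac4 at -0.94 and Hdac5 at 0.11 (SE 0.96, adjusted p = 0.946). Hdac5 ranged from 0.662 to 489 in dendrites and from 0.987 to 163 in somas, with medians of 46.9 and 39.5, and its dendrites were higher in 9 of 16 neurons. Whether the classes differ was not tested. Hdac6, the tubulin deacetylase, was at -3.83 (adjusted p = 0.0970), with reads in 9 dendrites and 16 somas.

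Among 14 genes tested in the group of histone methyltransferases, set by symbol, 0 passed in edgeR. On the soma side 7 were under an unadjusted p of 0.05, beside 26.7% of all genes. DESeq2 called 11 higher in somas, beside 46.2% of all genes. Activity on histones was not checked for each gene, for instance Setd3, one of the 7 (unadjusted p = 0.0316 in edgeR). The median log2 fold change of the 14 was -2.43. Setd7, found in every dendrite, ranged from 1.196 to 529 in dendrites and from 11.3 to 588 in somas, with medians of 101 and 85.1, and gave -0.42 (SE 0.80, adjusted p = 0.724). Kmt2e, a member of the MLL family, was found in 15 dendrites and 16 somas, at medians of 52.4 and 138 (-1.84, SE 0.92, adjusted p = 0.166). At the other end, Kmt2d and Setd1a, catalytic subunits of COMPASS complexes, were at -3.80 and -3.54 with adjusted p of 0.0928 and 0.131. Ezh2, the catalytic subunit of Polycomb repressive complex 2, had reads in 5 dendrites and 6 somas and was not tested, and its relative Ezh1 had reads in 10 and 14 (-2.92, adjusted p = 0.164).

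The 15 tested histone demethylases had a median of -1.53, close to the -1.49 of all genes, with Kdm1b as the 1 gene that passed. Kdm2a, the demethylase found in most dendrites, had reads in 15 dendrites and 16 somas, ranged from 0 to 206 in dendrites (median 12.0) and from 0.108 to 126 in somas (median 55.4), and was higher in the soma in 13 neurons (-1.48, SE 0.96, adjusted p = 0.280), a fold change like that of the median gene. Its paralog Kdm2b gave 0.62 (SE 1.51, adjusted p = 0.788), with medians of 7.88 in 10 dendrites with reads of 16 and 6.91 in 13 somas with reads of 16. Both medians include the libraries without reads. The Y-linked Kdm5d had reads in 8 dendrites and 10 somas and its X-linked relative Kdm5c in 11 and 15.

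The SWI/SNF and ISWI group, set by the symbol Smarc, held 0 of 12 genes past the threshold in edgeR, and its median was -1.64. On the soma side 4 were under an unadjusted p of 0.05, beside 26.7% of all genes. DESeq2 called 7 higher in somas, beside 46.2% of all genes. Smarcal1 and Smarcad1 (unadjusted p = 0.00488 and 0.0126 in edgeR) are in both counts but belong to the group by symbol only. Smarca2, one of the alternative ATPases of the BAF complex, was found in 15 dendrites and 16 somas, with a dendrite median of 191 (0 to 555) and a soma median of 254 (20.8 to 1164). Its log2 fold change was -0.33 (SE 0.69, adjusted p = 0.750), which lies 1.16 above that of the median gene on the log2 scale. The other BAF ATPase, Smarca4, was at -0.76 (adjusted p = 0.625), with medians of 35.1 in dendrites and 61.0 in somas. Of the ISWI ATPases, Smarca5 was at -1.41 (adjusted p = 0.288) and Smarca1 at -4.20 (adjusted p = 0.111). Reads of Smarca5 could be shared with its pseudogene Smarca5-ps, which held up to 285 reads in a library. The BAF core subunits Smarcb1, Smarcc1, Smarcc2, Smarcd1, Smarcd3 and Smarce1 spanned -2.73 to -0.02.

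The CHD remodelers had a median of -1.92 over 8 tested genes, and their paralogs spread from -5.07 to 0.87. Chd1, Chd2 and Chd9 were at -4.70, -4.78 and -5.07, while Chd3, Chd4 and Chd5, the NuRD helicases, were at 0.87, -0.81 and -1.24. Chd3 ranged from 10.5 to 334 in dendrites with a median of 167 and from 9.51 to 141 in somas with a median of 92.1. Its dendrites were higher than the soma in 13 of 16 neurons, the only one of the 74 genes with at least 12 neurons in that direction. The log2 fold change was 0.87 (SE 0.70, adjusted p = 0.379), and 2.36 above that of the median gene. With dendrites rescaled to the median gene it was 2.41 (adjusted p = 0.0296). Chd3 lies on chromosome 11 from 69343273 to 69369406, minus strand, and the annotation places a small RNA gene, Gm22442, within it on the same strand. Chd4 was found in 15 dendrites and 15 somas, at medians of 49.9 and 60.1, and Chd8 in 14 and 16, at medians of 30.7 and 64.6 (-1.34, adjusted p = 0.410).

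The ARID group held the gene with the highest fold change. Arid3b, a DNA-binding protein of the bright family, ranged from 0 to 45.2 in dendrites with a median of 6.93 and from 0 to 71.8 in somas with a median of 0.204. In 6 neurons its reads were in the dendrites alone, and dendrites were higher in 10 neurons and somas in 5. The log2 fold change was 3.32 (SE 1.64, adjusted p = 0.164). The 3 highest soma values, 71.8, 34.2 and 12.8, were those of neurons 1, 3 and 2, all amplified in 3 rounds, and the fold change was 5.11 (adjusted p = 0.0677) in the neurons of 2 rounds and -1.46 (adjusted p = 0.959) in those of 3 rounds. The BAF subunits Arid1a, Arid1b and Arid2, the last a subunit of the PBAF form, had reads in 14 dendrites and 16 somas each. Arid1a ranged from 0 to 162 in dendrites (median 18.2) and from 0.541 to 144 in somas (median 51.5), and gave -1.86 (SE 1.14, adjusted p = 0.250). The values were -1.21 for Arid1b and -2.01 for Arid2 (adjusted p = 0.362 and 0.237).

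The 7 bromodomain proteins had a median log2 fold change of -1.59, with Brd9 as the 1 gene that passed. The BET family members Brd2 and Brd3, readers of acetylated histones, were at -0.12 and -1.59 (adjusted p = 0.928 and 0.320). Brd2 had medians of 125 in dendrites and 90.5 in somas, with dendrites and soma higher in 8 neurons each. Brd7, a PBAF subunit, was found in 15 dendrites and 15 somas, at medians of 11.9 and 97.1 (-1.51, adjusted p = 0.447).

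The 13 genes outside the test were Arid3c, Chd1l, Chd7, Ezh2, Hdac8, Hdac10, Kdm4d, Kdm4dl, Kdm8, Setd4, Setd6, Setdb2 and Smarcd2. They had reads in 0 to 8 dendrites and in 0 to 8 somas, and Kdm4dl had 0 reads in every library. They had reads in fewer than 16 libraries. With no filter beyond 1 read all but Kdm4dl were tested, and 0 of the 86 genes then tested passed in edgeR, with 32 under an unadjusted p of 0.05. Over all genes 143 were then higher in somas and 15 in dendrites.

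The number of amplification rounds was the technical difference examined here. The neurons without a spike-in, 1 and 2, both had 3 rounds, so these labels overlap. With edgeR, 0 genes of the group had a compartment difference that differed between rounds after adjustment, and 3 of 74 did at an unadjusted p under 0.05, beside 2.65% of all genes. They were Smarcb1 (difference of log2 fold changes, 3 rounds minus 2 rounds, 5.94, p = 0.0252), Chd9 (6.90, p = 0.0328) and Arid3b (-6.58, p = 0.0448), each with an adjusted p of 1. Within the neurons of 2 rounds, 2 of 71 tested genes were higher in somas, Chd1 and Chd9, and the median was -2.40 beside -1.70 for all genes. All genes gave 306 higher in somas and 41 in dendrites there. Within the 4 neurons of 3 rounds, 0 passed in either direction, with 5 under an unadjusted p of 0.05, and the median was -1.23 beside -0.62. All genes gave 1 higher in somas and 3 in dendrites in that fit. In both batches the median of the chromatin genes was below that of all genes.

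Genes of partner complexes, taken from fixed lists, were also called on the soma side only. Of 127 genes in 8 lists of partner complexes, 109 were tested, 11 were higher in somas (10.1%, beside 5.71% of all genes) and 0 in dendrites. At an unadjusted p under 0.05 the soma side held 46 (42.2%, beside 26.7% of all genes) and the dendrite side 0, beside 3.55%. DESeq2 called 72 of the 109 higher in somas, beside 46.2% of all genes, and 0 higher in dendrites, beside 4.26%. Among 14 INO80 and SRCAP genes, Ruvbl1, Actr6 and Actr8 were higher in somas, and the median was -3.14. Actr6, an actin-related subunit of SRCAP, had the lowest log2 fold change of all 10880 genes tested, -8.47 (SE 1.53, adjusted p = 0.00182), with reads in 3 dendrites at up to 14.5 and in 15 somas at up to 150. All 10 partners of the Kmt2 enzymes in COMPASS were below 0 with a median of -4.03, and Ash2l and Cxxc1 passed at -4.26 and -4.74.

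Among 16 Polycomb partners tested, 3 were higher in somas, among them Bmi1, a subunit of Polycomb repressive complex 1 (-6.39, SE 1.47, adjusted p = 0.0124, higher in all 16 somas), and Eed, the partner of Ezh1 and Ezh2 (-5.50, SE 1.38, adjusted p = 0.0176). The exception in direction was Cbx6, at 0.61 (adjusted p = 0.438), with reads in all 16 dendrites and a dendrite median of 424 beside 310 in somas. The acetyltransferases Kat2b and Kat8 passed at -5.78 and -4.61 among 14 tested, and Ss18l1, the neuronal BAF subunit CREST, passed at -4.46 among 11 BAF and PBAF partners. In edgeR 0 of 17 deacetylase partners, 0 of 19 other methyltransferases and 0 of 8 DNA methylation genes passed. On the soma side 8, 6 and 3 were under an unadjusted p of 0.05, beside 26.7% of all genes. DESeq2 called 12, 11 and 3 higher in somas, beside 46.2% of all genes. The median of the DNA methylation genes was -0.91, above that of all genes.

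Markers of other compartments and cells varied among the same libraries. Of 6 nuclear long noncoding RNAs, 1, Snhg11, was higher in somas (-2.86, SE 0.72, adjusted p = 0.0172), and their summed level ran from 182 to 2212 RPM in dendrites and from 158 to 12340 in somas. Of the other 5, Malat1, Meg3 and Miat were at -1.29, -2.58 and -2.30, and Neat1 and Kcnq1ot1 at 1.42 and 1.57, none past the threshold in edgeR. Malat1 had reads in 14 dendrites and 15 somas, Meg3 in 15 and 16, and Kcnq1ot1 in all 32 libraries, with medians of 267 in dendrites and 87.4 in somas. The 6 astrocyte markers summed to 0 to 1675 in dendrites and 0.541 to 514 in somas, with 0 of 3 tested differing at the adjusted threshold. Microglia markers summed to at most 386 and 17.5, oligodendrocyte markers to at most 173 and 134, and endothelial markers to at most 135 and 129, with Cldn5 at 0 in all libraries. The part of nuclear RNA or of other cells in the values of the chromatin genes was not tested.

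The table of single 3′ ends gave 1 to 10 ends for each of the 87 genes, with 9 genes of 1 end. It names ends by number without coordinates, so which end is nearer to the coding sequence is not stated here. For genes with 10 reads on the top 2 ends in both compartments of at least 5 neurons, the share of reads on the higher-numbered end was compared within neurons. Of 32 chromatin genes tested, 3 had p under 0.1 (9.38%), beside 8.44% of all 3508 genes tested, and 0 passed after adjustment over all genes (exact signed-rank test), as did 0 of all genes.

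Arid1a used end 2 for 68.7% ± 40.7 of the reads on its ends 1 and 2 in dendrites and for 14.1% ± 13.6 in somas (SD, n = 6 neurons, exact signed-rank test, two-sided, p = 0.0312, adjusted p = 0.906). The share was higher in the dendrites of all 6 neurons, with dendrites from 3.64% to 100% and somas from 0% to 33.9%. Arid2 used end 2 for 99.9% ± 0.340 of these reads in dendrites and 43.2% ± 48.2 in somas (SD, n = 6 neurons, exact signed-rank test, two-sided, p = 0.0312, adjusted p = 0.906). Its 6 dendrites lay between 99.2% and 100%, while 3 somas were at 0% and 3 between 70.8% and 99.5%. For 6 pairs 0.0312 is the smallest p this test can give.

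Hdac5 used end 3 of its ends 2 and 3 for 3.44% ± 7.89 of reads in dendrites and 7.73% ± 12.2 in somas (SD, n = 12 neurons, exact signed-rank test, two-sided, p = 0.0742, adjusted p = 1). The soma share was higher in 8 neurons and the dendrite share in 1, and the largest gap was that of neuron 16, 0% in dendrites and 40.0% in the soma.

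**Figure D5:**
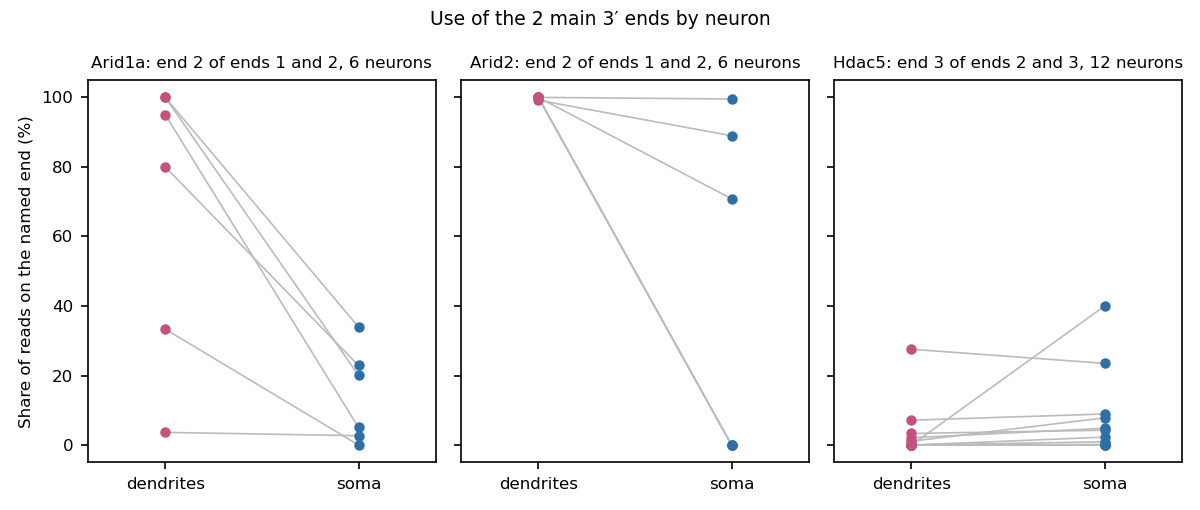
Share of reads on the higher-numbered of the 2 main 3′ ends (vertical axis, percent) in dendrites and soma of each neuron with at least 10 reads in both, joined by a line, for Arid1a, Arid2 and Hdac5. Dendrite shares of Arid1a lie above those of the paired soma in all 6 neurons, those of Arid2 lie between 99.2% and 100%, and those of Hdac5 stay low in both compartments.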

How the data were processed

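Libraries of 16 dendrite and 16 soma samples were analysed. The authors removed adapters and poly-A stretches, mapped reads to mm10 with STAR (version 2.4.0 in the submitters' processing notes) and counted uniquely mapped reads by strand with VERSE. The deposited values are raw counts, on the united 3′UTRs of each gene, on single 3′ ends and on exons, without molecular identifiers or normalization, and 0 columns belonged to no sample. Groups and neuron numbers came from the labels.

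From the 3′UTR counts, genes seen (1 read or more) in 16 or more of the 32 libraries were compared with edgeR 4.0.16 in R 4.3.3 (TMM factors, quasi-likelihood test, robust fit, neuron as a block, Benjamini-Hochberg adjustment over 10880 genes), with DESeq2 1.42.0, the tool of the study, as an alternative. Levels are reads in 1000000 of the TMM-scaled total (RPM). The SE is the size of the log2 fold change divided by the root of its F statistic. The fitted fold change of a gene with many counts of 0 depends on the small count that edgeR adds. Interaction terms tested the rounds, and exact two-sided signed-rank tests compared 3′ ends. Thinning was drawn once with a fixed seed. Other values were computed with Python 3.11.15, pandas 2.3.3 and NumPy 2.4.6. Positions are from GENCODE M21 on GRCm38, the assembly of mm10, in which all 87 genes were found, Setd8 under the symbol Kmt5a.

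A shared number means a shared cell, so the block pairs dendrites and soma of 1 neuron. Deviations from compartment means correlated at 0.0887 ± 0.0772 (SD, n = 16) within neurons and -0.00559 ± 0.0526 (SD, n = 240) between neurons, and 0 pairs of libraries held identical counts. On simulated counts for the compartment comparison (10764 genes), 40.7% of 199 genes changed by 4 on the log2 scale were called, and 0 of 10565 unchanged genes. The simulation drew as many genes up as down, left all others unchanged and had no neuron effect. In the real data 78.8% of genes lay below 0, so the simulation cannot give the rate of false calls under such a shift. Total reads set counting error only, so precision was taken from the spread over neurons.

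The genes and lists were chosen with earlier results of these data known. Named genes are those called, the next 5 by p in each direction (4 had a positive change), the gene found in most dendrites in each role and those with p under 0.1 for 3′ ends, and other genes are named as members of their role or list. No gene had groups that did not overlap. Alternatives covered the test, scaling, filters, counted features, block, rounds and left-out neurons. The ERCC spike-ins were not used here. Values of 1 gene of the group and 1 gene of the partner lists are not reported here, though both enter the counts.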

Additional observations from a re-analysis of the deposited data

Results flagged for a closer look

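Outside the 87 genes, the pseudogene Smarca5-ps, left out by its symbol, had more than 3 reads in 14 of the 32 libraries, with reads in 9 dendrites and 10 somas and at most 285 reads. It stands out as a signal outside the comparison. Whether these reads stem from the pseudogene or from Smarca5 was not tested.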

How the results depend on the processing

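The count of chromatin genes higher in somas (5) and in dendrites (0) changed with the processing, and the causes were not tested. It was 50 and 1 with DESeq2, 10 and 0 with median-of-ratios factors in edgeR, 0 and 1 with dendrites rescaled to the median gene, 0 and 0 with no filter beyond 1 read, 2 and 0 with 10 reads in 16 libraries required, 1 and 0 with exon counts (Smarcal1, with the 5 genes all lost), 2 and 0 in neurons of 2 rounds (Chd1 and Chd9), 0 and 0 in those of 3 rounds, and 1 and 0 without neurons 5, 12, 15 and 16, chosen after seeing the data. With no replicate block, that is without the pairing by neuron, it was 1 and 0. With 1 neuron left out it ran from 0 to 11 in somas and stayed at 0 in dendrites, and the median ran from -2.31 to -1.51. Over all genes the counts were 5029 and 463 with DESeq2, 1008 and 81 with median-of-ratios factors and 143 and 15 with no filter. They were 181 and 88 with 10 reads required, 257 and 98 with exon counts and 77 and 157 with no replicate block. They were 306 and 41 in neurons of 2 rounds and 1 and 3 in those of 3 rounds. With 10 reads required 56 chromatin genes were tested, and Arid4a, Chd1 and Kdm1b were not among them. In neurons of 2 rounds 71 were tested, without Kdm1b. The median of -1.98 moved to -0.49 with the rescaling, and it was -0.66 with no replicate block, where the median of all genes was -0.22. The median of the chromatin genes was below that of all genes in all 28 alternatives. The size of this difference, -0.49 in the main fit, varied. It was -1.85 with no filter beyond 1 read, -0.26 with 10 reads in 16 libraries required and -0.17 with exon counts.

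The number of genes in at least 15 dendrites (11) was 4 at 3 reads, 3 at 10 reads, 19 for at least 14 dendrites, 4 for all 16, and 23 for all but 1 dendrite without neurons 5, 12, 15 and 16.

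Some fold changes changed sign, among them those of Chd9 (-5.07) and Arid3b (3.32) in neurons of 3 rounds. Hdac5 was at -0.20 with DESeq2, -0.20 with median-of-ratios factors and -0.50 in neurons of 2 rounds, and Kdm2b at -0.36 with exon counts. With dendrites rescaled, Setd7 was at 1.12, Kdm2a at 0.048 and Smarca2 at 1.21. Exon counts put Setd7 at 0.047 and Smarca2 at 0.13. In neurons of 3 rounds Chd9 was at 0.035, Arid3b at -1.46, Setd7 at 0.22 and Smarca2 at 1.60. Without neurons 5, 12, 15 and 16, Setd7 was at 0.18. With 1 neuron left out, the ranges were -0.073 to 0.61 for Hdac5, -0.64 to 0.12 for Setd7 and -0.50 to 0.15 for Smarca2. Over all alternatives, outcomes were totaled for the fold changes and end shares of named genes and for the count of genes with p under 0.1 for ends. Together they stayed the same 417 times, became weaker 76 times, became stronger 30 times and changed sign 20 times. For fold changes weaker and stronger mean a call lost or gained. For end shares weaker means that the unadjusted p was no longer under 0.1.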
